A study of Mus musculus with 12 samples.

Results

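The genotype by treatment interaction asks, gene by gene, whether the response of macrophages to the fungus Candida albicans differed between wild-type and Piezo1 knockout cells. It was computed over all 12 libraries of the series as the response in the knockout (C. albicans minus PBS) minus the response in wild type, on log2(TPM + 1), where TPM is the deposited unit, a read count scaled to gene length and to the size of the library. Of the 25230 genes listed, 11283 reached 1 TPM in 3 or more libraries and were tested. The same number is the difference between the genotypes (knockout minus wild type) with C. albicans minus their difference with PBS, so each gene can also be read by which of these 2 differences carries it.

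Piezo1 is a cation channel of the cell membrane that opens when the membrane is stretched and lets calcium into the cell. Macrophages sense fungal cell walls mainly through C-type lectin receptors such as Dectin-1 (gene Clec7a) and Mincle (Clec4e), which signal through the kinase Syk and the adaptor Card9 to NF-kB, a family of transcription factors that switches on cytokine and chemokine genes. Many genes that NF-kB induces code for its own inhibitors, so a response carries its own brakes.

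The 4 groups were wild type with PBS, wild type with C. albicans, Piezo1 KO with PBS and Piezo1 KO with C. albicans, each of 3 libraries. All were polyadenylated RNA of bone marrow derived macrophages, grown from mouse femur and tibia marrow in recombinant M-CSF and described as CD11b+F4/80+ by flow cytometry. In the knockout PBS group the sample titles say DMSO, whereas the treatment label says PBS, and the sources used here do not settle which vehicle was given. An effect of the vehicle and an effect of the genotype cannot be told apart in the difference with PBS, nor in the interaction, which contains that difference. In the response of the knockout, which uses the same libraries, effects of the vehicle and of C. albicans cannot be told apart either. Neither the dose of fungus, the time of exposure, the mouse strain, age or sex, nor the design of the knockout (Cre driver, deleted exons) is given. Whether replicates are separate animals or cultures is not labelled, so every p-value measures only the spread between these libraries.

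Reads in genes, recovered as whole numbers from the deposited values, ranged from 16400119 to 25741091 per library, and those of replicate libraries differed by more than sampling noise in all 12 pairs. Wild-type C. albicans replicate 1 stood apart: its chi-square per degree of freedom was 15.4 and 14.5 against its replicates, where the other 10 pairs lay between 1.49 and 4.40. Markers of most other cells were near 0. The 7 dendritic cell markers summed to at most 1.40 TPM, the 5 T and NK cell markers to 1.50, the 4 B cell markers to 2.68, the 5 mast cell markers to 2.18, the 5 erythroid markers to 0.687 and the 6 stromal markers to 2.59, with Cd209a, Cd3e and Mcpt4 listed at 0 throughout. The 9 neutrophil markers summed to 59.6 to 89.6 TPM, nearly all from Csf3r, with Ly6g and S100a9 at 0. The 5 osteoclast markers summed to 138 to 143 TPM in wild type with PBS, 104 to 114 with C. albicans, 159 to 163 in the knockout with PBS and 135 to 139 with C. albicans, from Acp5 and Ctsk, with the other 3 (Ocstamp, Dcstamp and Calcr) under 1 TPM, and their part in the results was not tested. The 9 macrophage markers were all present and summed to 25860 to 26430 TPM in wild type with PBS, 22030 to 23460 with C. albicans, 15510 to 15750 in the knockout with PBS and 16050 to 16160 with C. albicans, most of it from the lysozyme gene Lyz2. Of these 9 genes 1 had a lower and 5 a higher response in the knockout. Lyz2 was lower in the knockout with both treatments, at -1.11 with PBS and -0.78 with C. albicans (interaction 0.33, limma adjusted p = 1.7e-04), and reads shared with its near copy Lyz1 leave its level uncertain. With PBS, Lyz2 was at 19420 to 19960 TPM in wild type and 8948 to 9269 in the knockout. Cd68 was higher in the knockout with PBS, at 3064 to 3090 TPM against 2470 to 2502. By the test, 5 of the 9 were lower in the knockout with PBS and 1 higher. The part of the lower marker sum in the results that follow was not tested, and in bulk RNA fewer cells of a type and less RNA per cell cannot be told apart.

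Of the 11283 genes, 1563 (13.9%) had an interaction at an adjusted p under 0.05 (limma, an empirical Bayes linear model, Benjamini-Hochberg adjustment over all tested genes, two-sided). The response lay lower in the knockout in 714 genes (6.33%) and higher in 849 (7.52%). Counts in the gene lists below are to be read against these 2 shares. The size was modest in most: 439 of the 714 and 590 of the 849 had an interaction under 0.5 in absolute log2, and 56 and 35 reached 1, a 2-fold difference between the responses. Calls for the contrasts behind it covered 32.3% of genes for the genotypes with PBS, 39.9% for the genotypes with C. albicans, 44.4% for C. albicans against PBS in wild type and 7.08% for the same in the knockout. The 799 calls for the response in the knockout became 464 without knockout PBS replicate 1, 420 without its replicate 3, and 468, 532 or 441 when replicate 1, 2 or 3 of the knockout with C. albicans was left out. Leaving out wild-type C. albicans replicate 1 gave 1487. The 3641 calls between the genotypes with PBS became 1802 with each library's trend with gene length removed. Without wild-type C. albicans replicate 1 the interaction count rose to 2531 (1059 lower and 1472 higher), and these included 1527 of the 1563. Without knockout PBS replicate 1 it dropped to 1036.

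Most interactions were smaller responses in the knockout. A gene with a smaller rise was seen 672 times and a gene with a smaller fall 800 times. Rise or fall is here the sign in wild type, and smaller refers to the absolute size in the knockout. The knockout response itself passed in 211 of the 672 and 69 of the 800. Passed or not, the 2 responses had opposite signs in 226 of the 714 lower and 268 of the 849 higher genes. A larger rise in the knockout was found in 24 genes, a larger fall in 14 and responses of opposite sign, both passed, in 27, while in 26 neither response passed by itself. Genes with a lower response had a median rise of 0.52 log2 in wild type and of 0.07 in the knockout. Those with a higher response had a median of -0.43 in wild type and -0.05 in the knockout. Over all tested genes these medians were -0.07 and -0.04.

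The genotypes differed with C. albicans only in 730 of the 1563 genes (46.7%), 358 of them lower and 372 higher in response. They differed with PBS only in 387 (24.8%), 104 lower and 283 higher. In 205 genes (13.1%) both differences passed with opposite signs, 78 lower and 127 higher. Both passed with the same sign in 169 genes with the larger difference under C. albicans (153 lower and 16 higher) and in 40 with the larger one under PBS (13 lower and 27 higher). In 32 genes neither passed. By size alone, the difference with C. albicans was at least 2 times that with PBS in 775 genes, and the reverse held in 369.

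**Figure D1:**
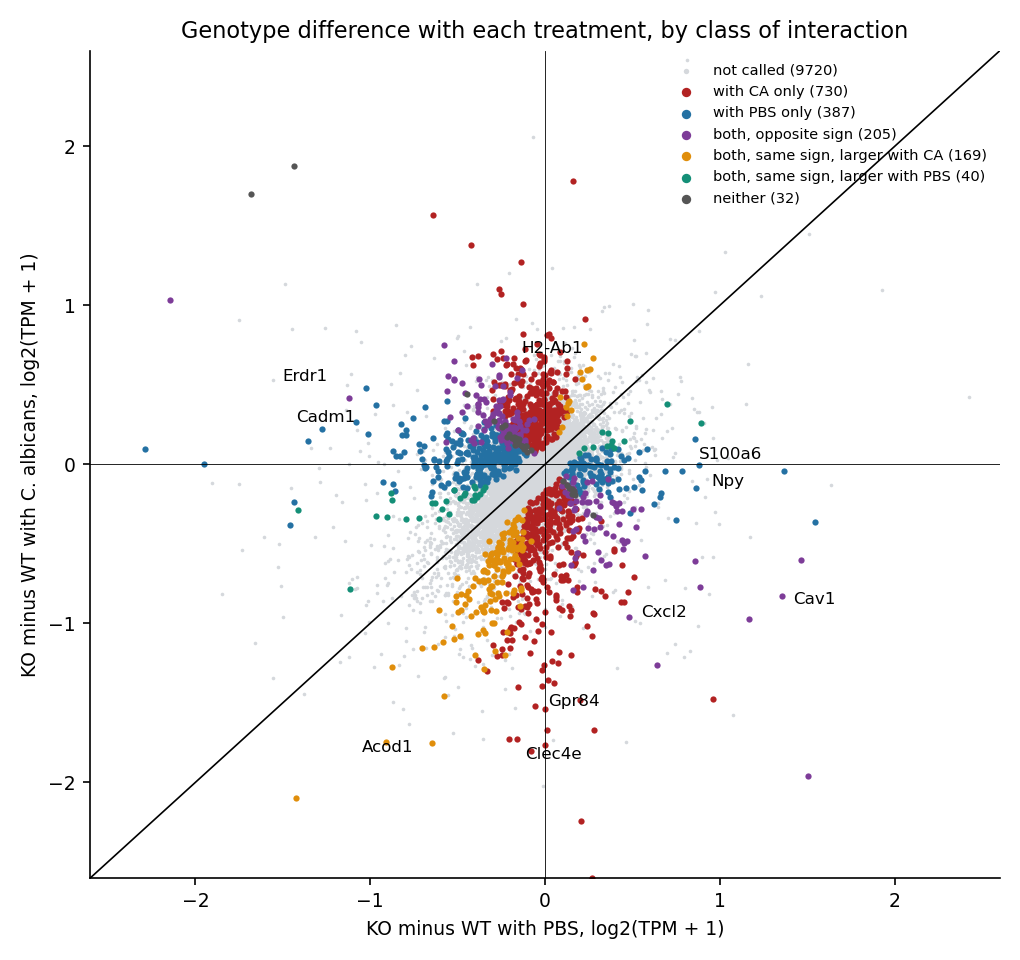
Each point is 1 of 11283 tested genes, with the knockout minus wild-type difference on log2(TPM + 1) with PBS on the x axis and with C. albicans on the y axis (1 gene beyond 2.6 is drawn at the edge). Genes on the diagonal had the same genotype difference with either treatment, called genes lie off it, and red points (730, differing with C. albicans only) stretch along the vertical axis.

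Among the 714 genes with a lower response the difference with C. albicans was the larger one in 567 (79.4%), with medians of -0.45 with C. albicans and 0.01 with PBS. Among the 849 genes with a higher response it was the larger in 469 (55.2%), with medians of 0.21 with C. albicans and -0.18 with PBS. Of the 91 genes at 2-fold or more, 52 differed with C. albicans only (42 lower and 10 higher) and 18 with PBS only (4 lower and 14 higher).

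These splits depend on how libraries are scaled. The genotype differences fell with gene length (Spearman correlation across genes -0.46 with PBS and -0.40 with C. albicans, genes not being independent), while the interaction hardly did (-0.045). Dividing by median-ratio factors, which set the typical gene to no change, moved the median gene by 0.089 with PBS and 0.056 with C. albicans. That scaling gave 946 lower and 663 higher responses, and removing each library's trend with gene length gave 964 and 737. The genes that differed with PBS only were then 218 lower and 155 higher with median-ratio scaling, and 162 and 182 with the length trend removed, so the excess of higher responses in that class was not seen with median-ratio scaling. The class with C. albicans only remained the most frequent, with 840 genes (466 lower and 374 higher) and 974 (584 and 390), so its balance did not hold, and with upper-quartile factors it leaned the other way (365 and 481). Differences of opposite sign were 107 lower and 73 higher with median-ratio factors, 93 and 89 with upper-quartile factors, and 101 and 100 with the length trend removed. Those of the same sign and larger with C. albicans were 106 and 34, 80 and 66, and 56 and 20 in that order, and those larger with PBS were 36 and 16, 37 and 13, and 13 and 10. Of the calls shared with the main values, 71.3% and 64.1% kept their class, and with these 2 corrections no gene among the 1563 changed the sign of its interaction.

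**Figure D2:**
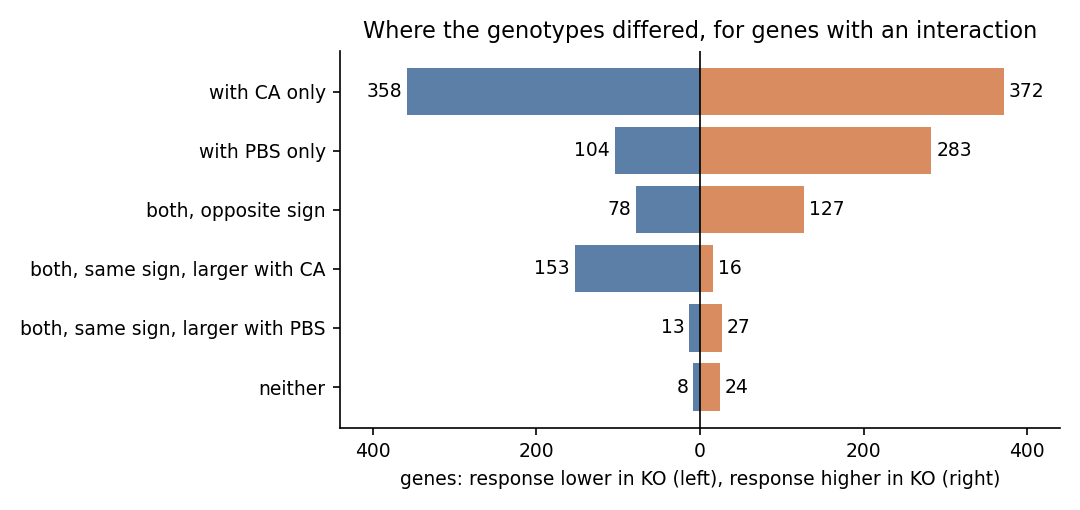
Bars give the number of genes in each class of genotype difference among the 1563 with an interaction, with lower responses in the knockout to the left and higher ones to the right. With the values as deposited the class with C. albicans only holds 358 and 372 and that with PBS only 104 and 283, and with median-ratio factors these are 466 and 374, and 218 and 155.

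The neutrophil-attracting CXC chemokines Cxcl1, Cxcl2 and Cxcl3 had some of the lowest interactions. The CXC list is wider and is not limited to neutrophil-attracting genes. Of its 8 tested genes, 5 had a lower response in the knockout (Cxcl1, Cxcl2, Cxcl3, Cxcl10 and Cxcl11) and 0 a higher one. The list had a median interaction of -0.96 against 0.02 over all tested genes. Cxcl2 was at 6.45, 6.27 and 7.86 TPM in wild-type PBS libraries (replicates 1 to 3), at 547, 619 and 617 in wild type with C. albicans, at 8.16, 11.7 and 10.2 in the knockout with PBS and at 314, 289 and 309 in the knockout with C. albicans. It stood far higher with C. albicans in both genotypes, the knockout libraries with C. albicans were all below those of wild type, and with PBS they were all above. The Cxcl2 interaction was -1.44 ± 0.15 (SE, limma adjusted p = 5.9e-05), from a genotype difference of 0.48 with PBS and -0.96 with C. albicans, and both passed. In wild type, Cxcl1 measured 0.139, 0 and 0 TPM with PBS and 33.2, 28.0 and 28.2 TPM with C. albicans, and in the knockout 1.17, 0 and 0.992 and 12.6, 11.4 and 11.4. The genotypes overlapped with PBS, where 3 of the 6 libraries are listed at 0, and did not overlap with C. albicans. For Cxcl1 the knockout minus wild-type difference was 0.64 with PBS and -1.26 with C. albicans (both passed), and the interaction was -1.91 ± 0.31 (SE, limma adjusted p = 0.0017). With a pseudocount of 0.1 its call was lost (adjusted p 0.051), and in 17 of 24 alternatives its small difference with PBS no longer passed. The Cxcl3 values were 0.389, 0.400 and 0.236 TPM (wild type, PBS), 6.36, 15.3 and 20.1 (wild type, C. albicans), 0.505, 1.05 and 0.396 (knockout, PBS) and 3.34, 3.05 and 3.48 (knockout, C. albicans). Here the wild-type C. albicans libraries were spread, with replicate 1 the lowest, yet all lay above the knockout. Cxcl3 had an interaction of -1.95 ± 0.41 (SE, limma adjusted p = 0.008), with genotype differences of 0.28 (PBS) and -1.67 (C. albicans), where only the latter passed.

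The start regions of these 3 genes are shown because they respond together and lie close to each other on chromosome 5, with that of Nfkbia, the main NF-kB inhibitor gene, for comparison. The sequences are 130 bases of the RefSeq promoter windows in GRCm38.p6, which run from 250 bases before to 50 after the gene start, in the direction of the gene. Capitals mark every match on either strand to GGGANNTTC, a shortened form of the NF-kB binding motif (matches on the 2 strands can overlap and join into a longer run).
Cxcl1, chr5:90891125-90891254, plus strand: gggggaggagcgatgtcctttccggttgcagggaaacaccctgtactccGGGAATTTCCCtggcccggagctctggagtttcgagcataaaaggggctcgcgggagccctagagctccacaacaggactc
Cxcl2, chr5:90903779-90903908, plus strand: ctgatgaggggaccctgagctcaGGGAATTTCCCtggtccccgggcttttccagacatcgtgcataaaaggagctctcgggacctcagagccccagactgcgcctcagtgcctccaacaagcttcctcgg
Cxcl3, chr5:90785981-90786110, plus strand: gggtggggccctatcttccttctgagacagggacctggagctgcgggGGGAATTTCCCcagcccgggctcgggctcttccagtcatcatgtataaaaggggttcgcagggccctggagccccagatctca
Nfkbia, chr12:55492638-55492767, minus strand: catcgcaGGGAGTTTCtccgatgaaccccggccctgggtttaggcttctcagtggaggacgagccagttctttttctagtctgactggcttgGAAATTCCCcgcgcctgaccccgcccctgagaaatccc
The 3 chemokine genes hold the same run of capitals, which begins 71 bases before the gene start in Cxcl1, 97 before it in Cxcl2 and 73 before it in Cxcl3. Of 8864 tested genes with a promoter window, 4.56% hold a match, as do 5 of 6 windows of the CXC list and 2 of 19 of the NF-kB list. The share was 5.38% among genes with a lower response in the knockout and 4.52% among those with a higher one, and 6.30% among lower responses that differed with C. albicans only. A match is a description of the letters and not a site of binding.

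Other chemokines moved in both directions. Of 10 tested CC chemokines, 5 had a lower response in the knockout and 3 a higher one. With PBS, Ccl3 stood at 146, 154 and 138 TPM in wild type and 129, 121 and 135 in the knockout, and with C. albicans at 589, 606 and 621 and 368, 335 and 333. All 3 knockout libraries lay below wild type with either treatment, by a small margin with PBS. Genotype differences for Ccl3 were -0.18 with PBS and -0.81 with C. albicans, where both passed, and its interaction was -0.63 ± 0.074 (SE, limma adjusted p = 1.7e-04). By contrast Ccl6 and Ccl8, chemokines that resting macrophages express, fell in wild type and had a higher response in the knockout. The Ccl6 interaction was 0.54 ± 0.054 (SE, limma adjusted p = 4.6e-05), from a genotype difference of -0.41 with PBS and 0.14 with C. albicans, and both passed. For Ccl8 the knockout minus wild-type difference was -0.23 with PBS and 0.27 with C. albicans (both passed), and the interaction was 0.50 ± 0.058 (SE, limma adjusted p = 1.5e-04).

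Of 13 tested cytokine genes 7 had a lower response in the knockout and 0 a higher one, with a median interaction of -0.73. Without wild-type C. albicans replicate 1 there was 1 higher, and without knockout C. albicans replicate 2 there were 6 lower. Tnf was at 45.2, 42.6 and 45.6 TPM in wild-type PBS libraries (replicates 1 to 3), at 594, 538 and 546 in wild type with C. albicans, at 47.2, 49.6 and 42.9 in the knockout with PBS and at 315, 302 and 329 in the knockout with C. albicans. The genotypes overlapped with PBS and were fully apart with C. albicans, where the knockout reached 56.4% of the wild-type mean. Tnf had an interaction of -0.89 ± 0.079 (SE, limma adjusted p = 2.1e-05), with genotype differences of 0.063 (PBS) and -0.82 (C. albicans), where only the latter passed. Of the wild-type log2 response of Tnf, a central inflammatory cytokine, 75.5% was present in the knockout. Genotype differences for Il1b were 0.15 with PBS and -0.91 with C. albicans, where only the latter passed, and its interaction was -1.06 ± 0.26 (SE, limma adjusted p = 0.02). Its call was lost when wild-type C. albicans replicate 2 or knockout C. albicans replicate 2 was left out (adjusted p up to 0.056 over all alternatives). The Il10 interaction was -0.98 ± 0.14 (SE, limma adjusted p = 5.0e-04), from a genotype difference of 0.35 with PBS and -0.63 with C. albicans, and both passed. In wild type, Il1rn measured 246, 243 and 231 TPM with PBS and 362, 435 and 431 TPM with C. albicans, and in the knockout 262, 256 and 253 and 267, 263 and 262. Il1rn codes for the antagonist of the interleukin-1 receptor. It stood higher with C. albicans in wild type, while the knockout libraries with C. albicans lay close to those with PBS. All knockout libraries with PBS lay above wild type by a small margin, though that difference did not pass. For Il1rn the knockout minus wild-type difference was 0.10 with PBS and -0.63 with C. albicans (only the latter passed), and the interaction was -0.73 ± 0.08 (SE, limma adjusted p = 1.1e-04).

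**Figure D3:**
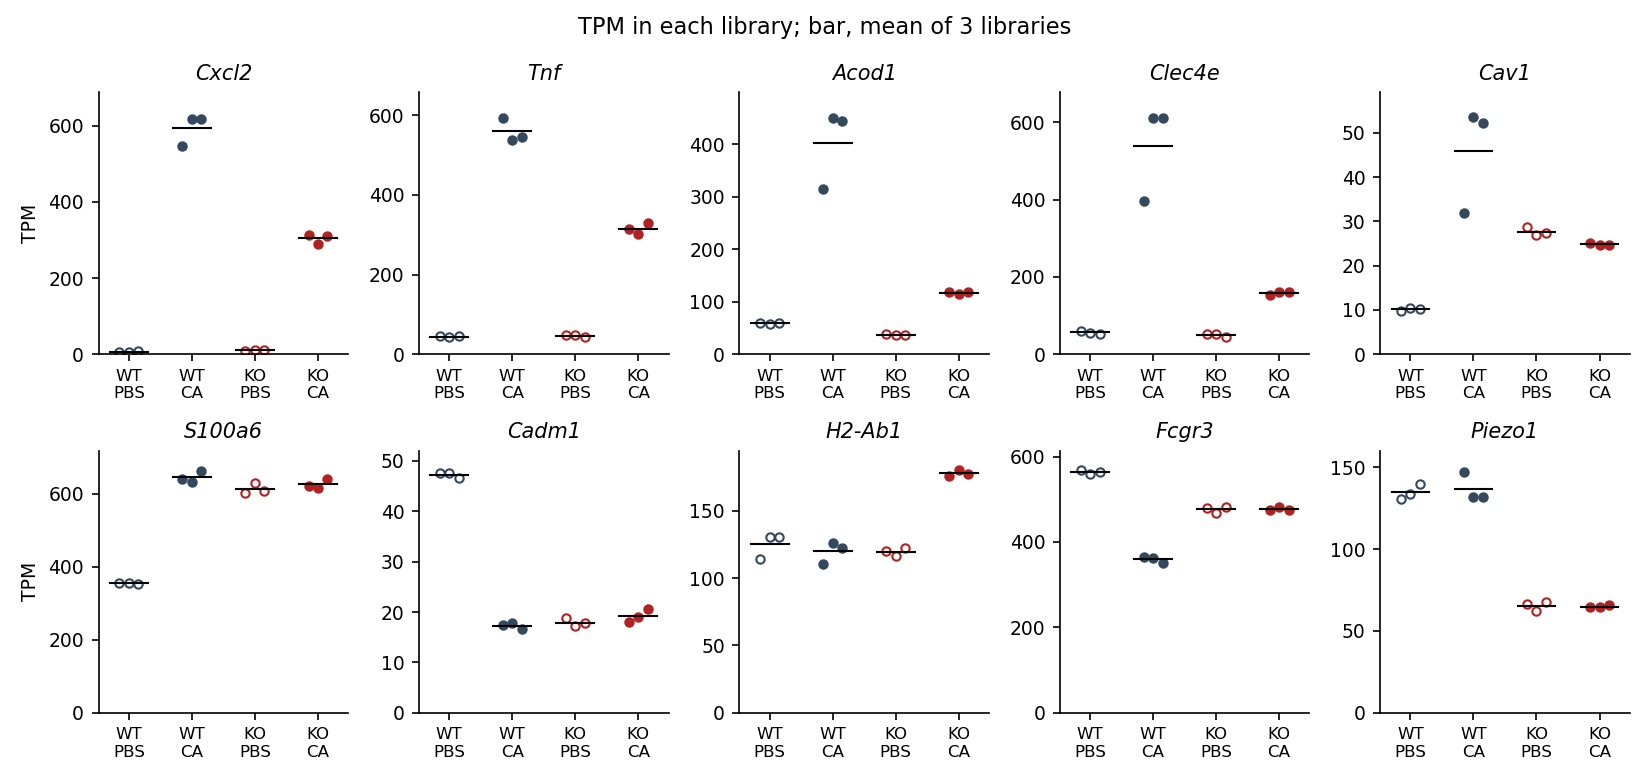
TPM of 10 genes in each of the 12 libraries (points, open for PBS and filled for C. albicans, wild type dark and knockout red) with the mean of 3 libraries as a bar, on linear axes from 0. Tnf and Clec4e separate with C. albicans, S100a6 and Cadm1 with PBS, Cxcl2, Cav1 and Fcgr3 with both in opposite directions, Acod1 is lower in the knockout with either treatment, H2-Ab1 is high only in the knockout with C. albicans, and Piezo1 differs alike with either.

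NF-kB feedback and target genes had the largest share of lower responses among the lists. All 25 were tested, 22 had a lower response in the knockout and 0 a higher one, and the median interaction was -0.61. The genotypes differed with C. albicans only in 17 of the 22, and in the other 5 both differences were negative and the one with C. albicans was the larger. All 25 rose in wild type and were lower in the knockout with C. albicans by the test, while 23 passed for the response in the knockout. Of all 11283 tested genes, 1814 rose in wild type, 3101 were lower in the knockout with C. albicans and 7.08% passed for the response in the knockout. The Nfkbia values were 113, 108 and 113 TPM (wild type, PBS), 762, 664 and 647 (wild type, C. albicans), 106, 108 and 111 (knockout, PBS) and 392, 405 and 394 (knockout, C. albicans). With PBS the genotypes overlapped, and with C. albicans every knockout library was below every wild-type one. Nfkbia had an interaction of -0.75 ± 0.073 (SE, limma adjusted p = 3.7e-05), with genotype differences of -0.04 (PBS) and -0.79 (C. albicans), where only the latter passed. Genotype differences for Nfkbiz were -0.24 with PBS and -1.06 with C. albicans, where only the latter passed, and its interaction was -0.82 ± 0.14 (SE, limma adjusted p = 0.0019). It codes for an atypical inhibitor protein that assists NF-kB at secondary response genes. Tnip1 and Tnip3, which bind the NF-kB brake A20, had interactions of -0.64 and -0.97, and Birc3, an inhibitor of cell death, had -0.67. Tnfaip2, a gene induced by tumour necrosis factor, had a difference with C. albicans alone. The Tnfaip2 interaction was -0.61 ± 0.041 (SE, limma adjusted p = 2.6e-06), from a genotype difference of -0.03 with PBS and -0.64 with C. albicans, and only the latter passed. Over 24 alternatives, 19 to 24 of the 25 genes had a lower response.

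With all libraries, genes of the early transcriptional response and of MAP kinase feedback also passed in 1 direction, that of lower responses. Of 23 immediate early factors 9 were lower, 0 higher, with a median of -0.52. The counts were 13 lower and 1 higher without wild-type C. albicans replicate 1, and 7 were lower without knockout PBS replicate 1. With PBS, Fos stood at 36.5, 35.8 and 41.4 TPM in wild type and 52.2, 49.0 and 54.0 in the knockout, and with C. albicans at 122, 139 and 142 and 96.4, 93.3 and 97.8. Fos, a subunit of the factor AP-1, was above wild type in all knockout libraries with PBS and below it in all with C. albicans. For Fos the knockout minus wild-type difference was 0.44 with PBS and -0.48 with C. albicans (both passed), and the interaction was -0.92 ± 0.093 (SE, limma adjusted p = 4.8e-05). In 4 of the 9 the signs were opposite in this way, and in 3 (Klf2, Klf4 and Nr4a1) the genotypes differed with PBS only. Of 10 MAP kinase feedback genes 5 were lower and 0 higher, with a median of -0.45. The phosphatase gene Dusp4 had the most negative interaction among these. Dusp4 had an interaction of -0.97 ± 0.084 (SE, limma adjusted p = 1.7e-05), with genotype differences of -0.23 (PBS) and -1.20 (C. albicans), where both passed. Dusp1, another phosphatase of MAP kinases, differed in opposite directions. Genotype differences for Dusp1 were 0.17 with PBS and -0.59 with C. albicans, where both passed, and its interaction was -0.76 ± 0.065 (SE, limma adjusted p = 1.6e-05). Plk2, a polo-like kinase, and Ets2, a transcription factor, followed the same form with small errors. The Plk2 interaction was -0.78 ± 0.043 (SE, limma adjusted p = 5.9e-07), from a genotype difference of 0.15 with PBS and -0.64 with C. albicans, and both passed. For Ets2 the knockout minus wild-type difference was 0.16 with PBS and -0.79 with C. albicans (both passed), and the interaction was -0.95 ± 0.058 (SE, limma adjusted p = 1.4e-06).

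Fungal recognition receptors went both ways, with 6 lower and 8 higher of 23 tested and a median interaction of 0.04. Among the lower ones was Mincle. Clec4e was at 59.8, 56.1 and 52.9 TPM in wild-type PBS libraries (replicates 1 to 3), at 395, 610.0 and 611 in wild type with C. albicans, at 52.4, 52.7 and 45.6 in the knockout with PBS and at 154, 162 and 162 in the knockout with C. albicans. The 3 knockout libraries with C. albicans were far below wild type, whose replicate 1 was lowest in its group, and the genotypes were close with PBS. Clec4e had an interaction of -1.56 ± 0.18 (SE, limma adjusted p = 1.7e-04), with genotype differences of -0.16 (PBS) and -1.72 (C. albicans), where only the latter passed. Genotype differences for Tlr2 were -0.50 with PBS and -0.93 with C. albicans, where both passed, and its interaction was -0.43 ± 0.063 (SE, limma adjusted p = 8.0e-04). Tlr2 is a Toll-like receptor for yeast wall components. Dectin-1 itself had no call with the values as deposited: Clec7a had an interaction of -0.13 ± 0.065 (SE, adjusted p = 0.23), with 157, 149.7 and 145 TPM in wild type and 140.5, 145 and 139.7 TPM in the knockout with C. albicans. It passed in 1 of 24 alternatives, with the replicate block and the length trend removed together (adjusted p = 0.035).

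The higher responses on that list included receptors that fell in wild type. In wild type, Fcgr3 measured 568, 559 and 564 TPM with PBS and 365, 363 and 350.4 TPM with C. albicans, and in the knockout 479.6, 467 and 481 and 474, 482 and 474. Fcgr3 codes for an activating receptor of antibody-coated particles. Its wild-type libraries were the highest of all with PBS and the lowest of all with C. albicans, while the knockout libraries hardly differed between treatments. The Fcgr3 interaction was 0.65 ± 0.037 (SE, limma adjusted p = 6.0e-07), from a genotype difference of -0.24 with PBS and 0.41 with C. albicans, and both passed. Fcgr4, of the same family, had the same form. For Fcgr4 the knockout minus wild-type difference was -0.27 with PBS and 0.32 with C. albicans (both passed), and the interaction was 0.59 ± 0.066 (SE, limma adjusted p = 1.1e-04). The mannose receptor gene Mrc1 differed with PBS only. Mrc1 had an interaction of 0.66 ± 0.074 (SE, limma adjusted p = 1.2e-04), with genotype differences of -0.69 (PBS) and -0.024 (C. albicans), where only the former passed. Itgam, the CD11b chain of complement receptor 3, was lower in the knockout with either treatment, more so with PBS. Genotype differences for Itgam were -0.80 with PBS and -0.34 with C. albicans, where both passed, and its interaction was 0.45 ± 0.047 (SE, limma adjusted p = 6.8e-05).

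In C-type lectin signalling 6 of 31 tested genes had a lower response and 1 a higher one (10 lower without wild-type C. albicans replicate 1, and 3 lower without knockout PBS replicate 1, wild-type PBS replicate 2 or 3, wild-type C. albicans replicate 2 or knockout C. albicans replicate 1), with a median of -0.06. The Malt1 values were 18.2, 17.3 and 15.8 TPM (wild type, PBS), 69.0, 68.0 and 67.9 (wild type, C. albicans), 19.3, 18.1 and 19.4 (knockout, PBS) and 35.5, 33.1 and 35.7 (knockout, C. albicans). Malt1, the protease that partners Bcl10 downstream of Card9, overlapped between genotypes with PBS and was lower in all knockout libraries with C. albicans. The Malt1 interaction was -1.10 ± 0.079 (SE, limma adjusted p = 3.4e-06), from a genotype difference of 0.14 with PBS and -0.95 with C. albicans, and only the latter passed. For Src the knockout minus wild-type difference was -0.024 with PBS and -0.72 with C. albicans (only the latter passed), and the interaction was -0.70 ± 0.091 (SE, limma adjusted p = 3.3e-04). Syk had a small interaction of -0.30 (adjusted p = 0.0015), with differences of -0.13 with PBS and -0.43 with C. albicans, and Card9 had 0.21 (adjusted p = 0.18), without a call for either difference.

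Among the inflammasome genes 5 of 21 had a lower response and 1 a higher one (4 higher without wild-type C. albicans replicate 1), with a median of -0.0049. The shares, 23.8% lower and 4.76% higher, compare with 6.33% and 7.52% over all tested genes. Casp4, which codes for mouse caspase-11, and Nlrp3, a sensor protein, were the clearest. Casp4 had an interaction of -0.75 ± 0.067 (SE, limma adjusted p = 2.1e-05), with genotype differences of -0.14 (PBS) and -0.89 (C. albicans), where both passed. In 11 of 24 alternatives the Casp4 difference with PBS no longer passed. With PBS, Nlrp3 stood at 25.7, 25.6 and 25.5 TPM in wild type and 14.8, 16.5 and 14.8 in the knockout, and with C. albicans at 162, 144 and 142 and 67.1, 65.8 and 66.2. The knockout was lower with both treatments. Genotype differences for Nlrp3 were -0.70 with PBS and -1.15 with C. albicans, where both passed, and its interaction was -0.45 ± 0.077 (SE, limma adjusted p = 0.0022). Nlrp3 kept 81.8% of its wild-type log2 response and Casp4 40.0%.

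Of 19 antimicrobial and lipid mediator genes 5 had a lower response and 2 a higher one (7 and 5 without wild-type C. albicans replicate 1). Only 3 were lower without wild-type PBS replicate 1, wild-type C. albicans replicate 2 or 3, knockout PBS replicate 3 or knockout C. albicans replicate 3. Acod1 was at 60.5, 58.3 and 59.2 TPM in wild-type PBS libraries (replicates 1 to 3), at 314, 451 and 444 in wild type with C. albicans, at 38.6, 37.0 and 37.1 in the knockout with PBS and at 119.5, 114 and 118 in the knockout with C. albicans. Acod1 makes itaconate, an antimicrobial metabolite. It was lower in all knockout libraries with either treatment, and wild-type C. albicans replicate 1 was the lowest of its group. The Acod1 interaction was -1.11 ± 0.14 (SE, limma adjusted p = 3.2e-04), from a genotype difference of -0.65 with PBS and -1.75 with C. albicans, and both passed. The prostaglandin genes Ptgs2 and Ptges differed with C. albicans only. For Ptgs2 the knockout minus wild-type difference was 0.076 with PBS and -1.25 with C. albicans (only the latter passed), and the interaction was -1.33 ± 0.20 (SE, limma adjusted p = 8.9e-04). In wild type, Ptges measured 2.57, 3.24 and 3.09 TPM with PBS and 9.05, 24.8 and 24.5 TPM with C. albicans, and in the knockout 3.03, 2.62 and 2.58 and 4.23, 4.30 and 4.65. In the knockout Ptges did not pass for a response (adjusted p = 0.26), and its wild-type replicate 1 was well below the others. Ptges had an interaction of -1.72 ± 0.38 (SE, limma adjusted p = 0.01), with genotype differences of -0.082 (PBS) and -1.80 (C. albicans), where only the latter passed. Nos2, inducible nitric oxide synthase, was below 7 TPM in every library, with an interaction of -1.52 (adjusted p = 0.024) whose call was lost in 7 of 24 alternatives, among them leaving out wild-type C. albicans replicate 2 or 3. The Saa3 values were 2778, 2728 and 2762 TPM (wild type, PBS), 1213, 1262 and 1283 (wild type, C. albicans), 1863, 1949 and 1850.3 (knockout, PBS) and 1585, 1519 and 1508 (knockout, C. albicans). Saa3, an acute phase protein, fell in both genotypes, and the wild type went from above the knockout with PBS to below it with C. albicans. Genotype differences for Saa3 were -0.55 with PBS and 0.30 with C. albicans, where both passed, and its interaction was 0.84 ± 0.042 (SE, limma adjusted p = 3.3e-07).

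Redox and stress genes were lower in part. Of 24 NRF2 targets 9 had a lower response and 1 a higher one (37.5% and 4.17%, against 6.33% and 7.52% over all tested genes), with a median of -0.27. The lower count was 14 with the length trend removed and 16 without wild-type C. albicans replicate 1. With PBS, Txnrd1 stood at 100.3, 101 and 99.6 TPM in wild type and 107, 103 and 107 in the knockout, and with C. albicans at 179.9, 284 and 286 and 131, 129 and 131. Txnrd1, thioredoxin reductase, was higher with C. albicans in wild type, where replicate 1 lay well below the other replicates, and the knockout did not pass for a response (adjusted p = 0.18). With PBS all its knockout libraries lay slightly above wild type, though that difference did not pass. The Txnrd1 interaction was -0.98 ± 0.18 (SE, limma adjusted p = 0.0035), from a genotype difference of 0.078 with PBS and -0.90 with C. albicans, and only the latter passed. For Slc7a11 the knockout minus wild-type difference was 0.20 with PBS and -1.48 with C. albicans (only the latter passed), and the interaction was -1.68 ± 0.25 (SE, limma adjusted p = 9.0e-04). Slc7a11 imports cystine. Of 19 genes of amino acid stress 4 were lower and 1 higher (3 higher without wild-type C. albicans replicate 1), and of 16 heat shock genes 4 were lower and 0 higher (7 lower with median-ratio scaling, 1 without wild-type C. albicans replicate 2 or 3, knockout PBS replicate 1 or knockout C. albicans replicate 1). Hspa1a was at 5.89, 6.31 and 8.14 TPM in wild-type PBS libraries (replicates 1 to 3), at 14.3, 97.0 and 99.9 in wild type with C. albicans, at 8.18, 6.93 and 8.75 in the knockout with PBS and at 10.2, 9.62 and 11.1 in the knockout with C. albicans. One of the wild-type C. albicans libraries, replicate 1, lay near the knockout and the others far above. Hspa1a shares reads with its near-identical copy Hspa1b, so its values are uncertain, and its call (-2.45 ± 0.73 SE, adjusted p = 0.043) was lost in 15 of 24 alternatives, among them each one that left out a library other than wild-type C. albicans replicate 1. Hsp90aa1 had an interaction of -0.47 ± 0.092 (SE, limma adjusted p = 0.0053), with genotype differences of 0.044 (PBS) and -0.42 (C. albicans), where only the latter passed.

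**Figure D4:**
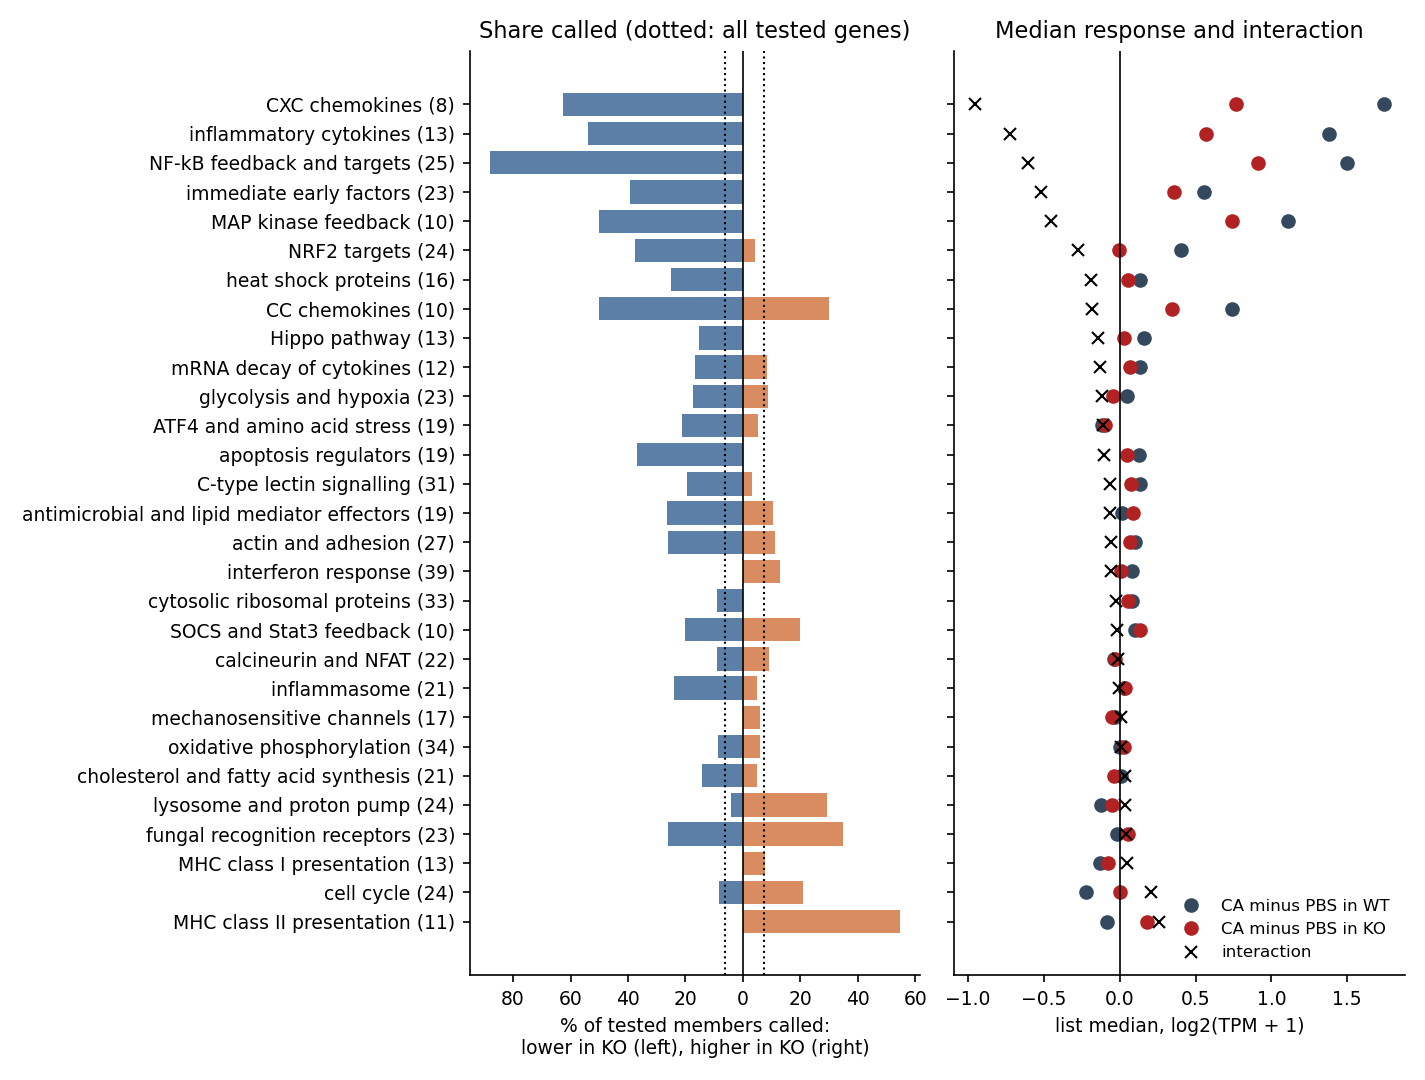
For each list other than the cell marker lists with at least 8 tested genes (number in brackets), the left panel gives the percent of tested members with a lower (left) or higher (right) response in the knockout, with dotted lines at the shares over all tested genes (6.33% and 7.52%), and the right panel gives list medians of the response in each genotype and of the interaction on log2(TPM + 1). CXC chemokines (median -0.96), inflammatory cytokines (-0.73) and NF-kB genes (-0.61) sit at the top in that order, and MHC class II (0.26) at the bottom.

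A set of genes carried the difference already with PBS. S100a6, a calcium-binding protein, is the clearest of those described here. In wild type, S100a6 measured 356, 355 and 353 TPM with PBS and 639, 632 and 662 TPM with C. albicans, and in the knockout 601, 629 and 607 and 621, 616 and 639.6. The wild-type PBS libraries stood alone at the low end, and the knockout with PBS was already near the level that both genotypes had with C. albicans. Genotype differences for S100a6 were 0.79 with PBS and -0.042 with C. albicans, where only the former passed, and its interaction was -0.83 ± 0.04 (SE, limma adjusted p = 3.3e-07). S100a4, a related gene, had the same form. The S100a4 interaction was -1.01 ± 0.085 (SE, limma adjusted p = 1.3e-05), from a genotype difference of 0.86 with PBS and -0.15 with C. albicans, and only the former passed. The Npy values were 518, 536 and 523 TPM (wild type, PBS), 839, 974 and 963 (wild type, C. albicans), 945, 983 and 973 (knockout, PBS) and 899, 931 and 929 (knockout, C. albicans). For Npy, which codes for neuropeptide Y, the wild-type PBS libraries were again the only low ones. For Npy the knockout minus wild-type difference was 0.88 with PBS and -0.0057 with C. albicans (only the former passed), and the interaction was -0.88 ± 0.066 (SE, limma adjusted p = 4.4e-06).

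Short genes of ribosomes and mitochondria gave a few calls in this class. Of 33 ribosomal protein genes 3 were lower and 0 higher, all differing with PBS only, among them Rpl39 (7 lower without wild-type C. albicans replicate 1). Rpl39 had an interaction of -0.41 ± 0.091 (SE, limma adjusted p = 0.01), with genotype differences of 0.39 (PBS) and -0.018 (C. albicans), where only the former passed. Of 34 oxidative phosphorylation genes 3 were lower and 2 higher (5 lower without that library), including Uqcrb, a subunit of complex III. Genotype differences for Uqcrb were 0.32 with PBS and -0.002 with C. albicans, where only the former passed, and its interaction was -0.32 ± 0.07 (SE, limma adjusted p = 0.0091). Such shares (9.09% and 8.82% lower, against 6.33% of all genes) are near the background.

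Some genes that fell in wild type were already low in the knockout with PBS. With PBS, Cadm1 stood at 47.6, 47.6 and 46.5 TPM in wild type and 18.8, 17.2 and 17.7 in the knockout, and with C. albicans at 17.4, 17.8 and 16.6 and 18.0, 19.0 and 20.7. Cadm1, a cell adhesion protein of the immunoglobulin family, was high in the wild-type PBS libraries alone and similar in the other 9. The Cadm1 interaction was 1.50 ± 0.08 (SE, limma adjusted p = 5.2e-07), from a genotype difference of -1.35 with PBS and 0.15 with C. albicans, and only the former passed. For Il4ra the knockout minus wild-type difference was -0.41 with PBS and 0.088 with C. albicans (only the former passed), and the interaction was 0.50 ± 0.089 (SE, limma adjusted p = 0.0028). Il4ra is the interleukin-4 receptor chain. Cadm1 and Il4ra, like Mrc1, S100a4 and S100a6, moved to differences of opposite sign when the length trend was removed, since their small difference with C. albicans then passed.

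Differences of opposite sign were wide for Cav1, the caveolin of membrane pits. Cav1 was at 9.81, 10.5 and 10.3 TPM in wild-type PBS libraries (replicates 1 to 3), at 32.0, 53.7 and 52.3 in wild type with C. albicans, at 28.7, 26.9 and 27.4 in the knockout with PBS and at 25.1, 24.7 and 24.6 in the knockout with C. albicans. Knockout libraries with PBS were all above wild-type PBS, and with C. albicans all below wild type, where replicate 1 was much the lowest. In the knockout the response itself did not pass (adjusted p = 0.57). Cav1 had an interaction of -2.18 ± 0.20 (SE, limma adjusted p = 2.4e-05), with genotype differences of 1.36 (PBS) and -0.83 (C. albicans), where both passed. Lsp1, an actin-binding protein of leukocytes, had the same form. Genotype differences for Lsp1 were 0.86 with PBS and -0.61 with C. albicans, where both passed, and its interaction was -1.47 ± 0.11 (SE, limma adjusted p = 3.4e-06). In wild type, S100a8 measured 1.01, 2.43 and 2.75 TPM with PBS and 5.72, 7.73 and 6.60 TPM with C. albicans, and in the knockout 3.94, 4.10 and 5.49 and 2.89, 4.65 and 3.09. S100a8, a subunit of the granulocyte protein calprotectin, was low throughout, and the genotypes did not overlap with either treatment. The S100a8 interaction was -1.66 ± 0.31 (SE, limma adjusted p = 0.0039), from a genotype difference of 0.89 with PBS and -0.77 with C. albicans, and both passed.

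In the other direction, Arrdc3, an arrestin-like protein, was lower in the knockout with PBS and higher with C. albicans. For Arrdc3 the knockout minus wild-type difference was -0.56 with PBS and 0.46 with C. albicans (both passed), and the interaction was 1.02 ± 0.10 (SE, limma adjusted p = 3.8e-05). Irf8, a transcription factor of the macrophage lineage, moved alike. Irf8 had an interaction of 0.49 ± 0.066 (SE, limma adjusted p = 4.1e-04), with genotype differences of -0.26 (PBS) and 0.23 (C. albicans), where both passed. The Erdr1 values were 258, 265 and 308 TPM (wild type, PBS), 175, 152 and 155 (wild type, C. albicans), 121, 124 and 135 (knockout, PBS) and 220.4, 206 and 218 (knockout, C. albicans). Erdr1 was lower with C. albicans in wild type and higher with it in the knockout, and both responses passed (log2 -0.78 and 0.76). Genotype differences for Erdr1 were -1.12 with PBS and 0.42 with C. albicans, where both passed, and its interaction was 1.54 ± 0.10 (SE, limma adjusted p = 2.3e-06). Its reads may be split among near-identical copies, which leaves its values uncertain. Mid1, a microtubule-bound ubiquitin ligase, had responses of opposite sign too, -0.28 in wild type and 0.84 in the knockout. Its genotype difference kept its sign, at -1.41 with PBS and -0.29 with C. albicans (interaction 1.12, limma adjusted p = 2.1e-05), and its reads may be shared with a repeated copy.

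**Figure D5:**
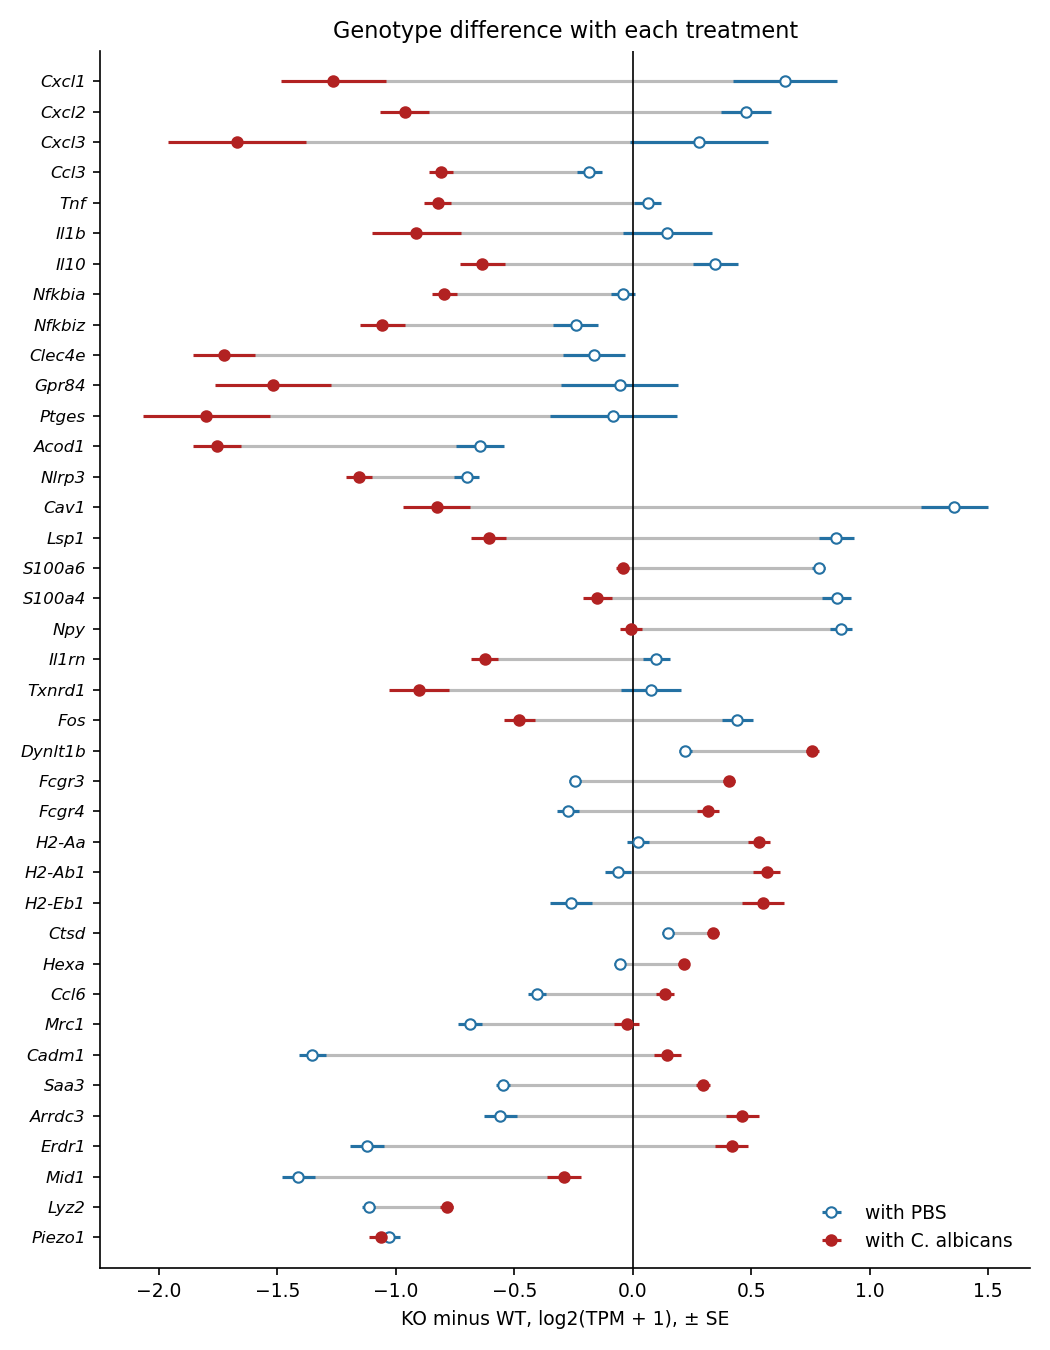
Knockout minus wild-type difference on log2(TPM + 1) with its standard error for 39 genes, with PBS (open blue) and with C. albicans (filled red), each joined by a grey line whose length is the interaction. Genes such as Nfkbia and Tnf have the open point near 0, S100a6, Npy and Mrc1 have the filled point near 0, Cav1 has the longest line of those drawn, and both points of Piezo1 lie near -1.03 and -1.06.

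Antigen presentation by MHC class II gave higher responses. Of 11 tested genes 6 were higher and 0 lower, with a median of 0.26, and 4 of the 6 differed with C. albicans only. With PBS, H2-Ab1 stood at 115, 131 and 130.3 TPM in wild type and 120.0, 116 and 123 in the knockout, and with C. albicans at 111, 127 and 123 and 176, 180.4 and 177. The knockout libraries with C. albicans stood above all others, and the other 9 overlapped. The H2-Ab1 interaction was 0.63 ± 0.08 (SE, limma adjusted p = 2.9e-04), from a genotype difference of -0.062 with PBS and 0.57 with C. albicans, and only the latter passed. For H2-Aa the knockout minus wild-type difference was 0.023 with PBS and 0.53 with C. albicans (only the latter passed), and the interaction was 0.51 ± 0.065 (SE, limma adjusted p = 3.0e-04). H2-Aa, H2-Ab1 and H2-Eb1 code for the chains of the class II molecules. In wild type none of these 3 passed for a response, whereas in the knockout all did, with log2 values of 0.50, 0.57 and 0.69. H2-Eb1 also passed for a difference with PBS of -0.26, which was lost in 13 of 24 alternatives, and its interaction was 0.81. Of 13 genes of MHC class I, 1 was higher and 0 lower (2 higher without wild-type PBS replicate 1, and 2 higher and 1 lower without wild-type C. albicans replicate 1). The share higher was 7.69% for class I and 54.5% for class II, against 7.52% over all tested genes.

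Lysosomal genes had 7 higher and 1 lower response of 24 (29.2% and 4.17%, against 7.52% and 6.33% over all tested genes), with a median of 0.04. The higher count was 4 with median-ratio scaling and with the length trend removed, and 1 without the filter on low values. The lower count was 2 with median-ratio scaling, 3 with the length trend removed and 4 with both. The enzyme gene Hexa differed with C. albicans only. Hexa had an interaction of 0.27 ± 0.033 (SE, limma adjusted p = 2.4e-04), with genotype differences of -0.055 (PBS) and 0.22 (C. albicans), where only the latter passed. Ctsd was at 19036, 18952 and 19366 TPM in wild-type PBS libraries (replicates 1 to 3), at 15551, 14592 and 14598 in wild type with C. albicans, at 21118, 21205 and 21307 in the knockout with PBS and at 18658, 18983 and 18926 in the knockout with C. albicans. Ctsd, cathepsin D, was above wild type in all knockout libraries with either treatment. Genotype differences for Ctsd were 0.15 with PBS and 0.34 with C. albicans, where both passed, and its interaction was 0.19 ± 0.034 (SE, limma adjusted p = 0.0029). Its call was lost without the filter on low values. Acp5, an acid phosphatase of macrophages and osteoclasts, and Dynlt1b, a dynein light chain, had a positive difference with both treatments, larger with C. albicans. The Acp5 interaction was 0.40 ± 0.054 (SE, limma adjusted p = 4.5e-04), from a genotype difference of 0.27 with PBS and 0.67 with C. albicans, and both passed. For Dynlt1b the knockout minus wild-type difference was 0.22 with PBS and 0.76 with C. albicans (both passed), and the interaction was 0.54 ± 0.039 (SE, limma adjusted p = 3.6e-06).

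Some of the most positive interactions with C. albicans only were in genes that fell in wild type. In wild type, Engase measured 29.1, 28.6 and 31.4 TPM with PBS and 10.0, 7.13 and 7.71 TPM with C. albicans, and in the knockout 23.3, 25.1 and 25.9 and 19.2, 17.7 and 18.1. Engase, an enzyme that releases sugar chains, was lowest in wild type with C. albicans and otherwise between 17.7 and 31.4 TPM. With PBS all its knockout libraries lay below wild type, though that difference did not pass. Engase had an interaction of 1.33 ± 0.13 (SE, limma adjusted p = 4.7e-05), with genotype differences of -0.25 (PBS) and 1.07 (C. albicans), where only the latter passed. Genotype differences for Gdf3 were -0.27 with PBS and 1.10 with C. albicans, where only the latter passed, and its interaction was 1.37 ± 0.15 (SE, limma adjusted p = 1.1e-04). Gdf3 is a growth factor of the TGF-beta family. Ier5l had an interaction of 1.41 (adjusted p = 8.9e-04) at 1.52 to 11.0 TPM, which a pseudocount of 5 reduced to 0.78.

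Among genes with a lower response outside these lists, Gpr84, which senses medium-chain fatty acids, was spread in wild type. The Gpr84 values were 6.38, 5.69 and 5.88 TPM (wild type, PBS), 41.1, 102 and 98.8 (wild type, C. albicans), 6.14, 5.39 and 5.63 (knockout, PBS) and 23.7, 25.8 and 26.9 (knockout, C. albicans). Replicate 1 of wild type with C. albicans lay far below the other replicates, and still above the knockout. The Gpr84 interaction was -1.46 ± 0.35 (SE, limma adjusted p = 0.015), from a genotype difference of -0.055 with PBS and -1.52 with C. albicans, and only the latter passed. In the apoptosis list 7 of 19 were lower (36.8%, against 6.33% over all tested genes) and 0 higher (3 higher without wild-type C. albicans replicate 1). Among the lower was Bcl2a1d (interaction -1.21), whose reads may be shared within its gene cluster. With PBS the Bcl2a1d difference did not pass, though its knockout libraries (38.8 to 41.3 TPM) all lay above wild type (31.9 to 33.6). Socs3, a brake on cytokine signalling, had -0.83, with 2 lower and 2 higher of 10 genes on its list, and 1 lower with any 1 library left out other than replicate 3 of wild type with C. albicans.

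Calls in the remaining lists are set against 6.33% lower and 7.52% higher over all tested genes. The share lower was 25.9% for actin and adhesion, 17.4% for glycolysis, 16.7% for mRNA decay, 15.4% for Hippo and 14.3% for cholesterol. It was 9.09% for calcineurin, 8.33% for cell cycle and 0% for interferon. The share higher was 20.8% for cell cycle, 12.8% for interferon, 11.1% for actin and at most 9.09% for the others. Calcineurin and NFAT genes had 2 lower and 2 higher of 22, with Rcan1, a calcineurin-induced inhibitor, at -0.36 (adjusted p = 0.0016) and the calcium channel gene Orai2 at -0.37 (adjusted p = 0.0016). Hippo pathway genes had 2 lower and 0 higher of 13 (4 lower with median-ratio scaling, 0 without knockout PBS replicate 1 or 3, wild-type PBS replicate 2 or 3 or knockout C. albicans replicate 2 or 3). Actin and adhesion genes had 7 lower and 3 higher of 27, among them the integrin gene Itga5 with -0.53 and a difference with C. albicans only, and the counts were 13 and 5 without wild-type C. albicans replicate 1, while the lower count was 4 without wild-type C. albicans replicate 2 or 3 or knockout PBS replicate 1. The interferon list had 0 lower and 5 higher of 39 (3 higher with median-ratio scaling), yet 15 lower and 6 higher without wild-type C. albicans replicate 1. Glycolysis and hypoxia genes had 4 lower and 2 higher of 23. The lower count was 13 without wild-type C. albicans replicate 1, and 1 without knockout PBS replicate 1, wild-type PBS replicate 3 or knockout C. albicans replicate 1. The cholesterol list had 3 lower and 1 higher of 21 (4 higher without wild-type C. albicans replicate 1, and 1 lower without knockout PBS replicate 1 or knockout C. albicans replicate 1). The cell cycle list had 2 lower and 5 higher of 24 (2 higher without the filter on low values), and genes of cytokine mRNA decay 2 lower and 1 higher of 12.

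Piezo1 itself did not pass for an interaction. With PBS, Piezo1 stood at 130.4, 134 and 139.6 TPM in wild type and 66.5, 62.4 and 67.5 in the knockout, and with C. albicans at 147, 132 and 132 and 64.6, 64.3 and 65.7. The knockout mean was 48.6% of wild type with PBS and 47.4% with C. albicans, and no library of 1 genotype overlapped the other. The differences were -1.03 with PBS and -1.06 with C. albicans (limma adjusted p = 6.1e-08 and 3.4e-08), and the interaction was -0.034 ± 0.068 (SE, adjusted p = 0.79). Of 17 tested mechanosensitive channel genes, 1 had a higher response and 0 a lower one (2 higher without wild-type C. albicans replicate 1). The share higher, 5.88%, is near the 7.52% over all tested genes, and 6.33% of all were lower.

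A small class had an interaction without a genotype difference of its own. Pnpla7, a lysophospholipase gene, had the smallest interaction p in it. For Pnpla7 the knockout minus wild-type difference was -0.18 with PBS and 0.17 with C. albicans (neither passed), and the interaction was 0.35 ± 0.093 (SE, limma adjusted p = 0.027). Its call was lost in 10 of 24 alternatives, and the class held 32 genes with the values as deposited, 19 with upper-quartile factors and 83 with the length trend removed.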

How the data were processed

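The series holds 12 RNA-seq libraries of bone marrow derived macrophages from mice, 3 for each combination of genotype (wild type, Piezo1 KO) and treatment (PBS, C. albicans). The authors deposited 1 table of TPM (reads scaled to gene length and library size, every column with the same sum) for 25230 genes, with a mean normalised signal per gene over the libraries, also deposited by the authors. The submitters' processing notes name CASAVA 1.8, cutadapt 2.6, STAR 2.7.5a, DESeq2 1.34.0 and mm10, without roles. With the read counter, strand setting and annotation not given in the sources used here, antisense and overlapping genes cannot be told apart.

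From these values, log2(TPM + 1) was fitted with limma 3.58.1 in R 4.3.3 (trend on, robust off), 1 mean per group and 8 residual degrees of freedom, for the 11283 genes that reached 1 TPM in 3 or more libraries. The interaction, both genotype differences and both responses were contrasts of that fit. A call is a Benjamini-Hochberg adjusted p under 0.05 over all tested genes of the contrast. A pseudocount of 1 understates changes of genes at a few TPM. A gene's class was set by which genotype difference was called: with C. albicans only, with PBS only, both with opposite signs, both with the same sign, or neither. A miss in a difference is a missed threshold, not a sign of equal levels.

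Dividing the TPM by median-ratio factors and scaling each gene to its mean signal gave whole reads for 100.0% of 124665 values below 1000 reads, within 0.01 reads. These reads served only for depth and for comparing replicates. The fit was tested on simulated data. There every library had the same spread and genes varied independently, so that test does not cover a library that deviates from its group. No label says that replicate numbers pair the libraries, and the main fit had no replicate block. Sequences came from RefSeq tables of GRCm38.p6, and promoters were matched by gene identifier. Python 3.11.15, pandas 2.3.3 and matplotlib 3.10.9 were used.

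The genes described and the 39 gene lists were chosen with earlier results of these data known. A rule gave 143 genes: Piezo1, the 15 most negative and 15 most positive interactions, the 4 with the smallest p in each class and the 3 in each list, and a panel of known response genes. The genes described with their interaction, 76 in number, are examples from that set and not the whole of it. Small RNA genes and genes under 5 TPM in every group mean were left out of the rankings by size and class. Mitochondrially encoded genes, and members of a list missing from the table, are not analysed here. There were 24 alternatives: other scalings, pseudocounts, filters and limma settings, removal of the gene length trend, replicate number as a block, and each library left out in turn.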

Additional observations from a re-analysis of the deposited data

Results flagged for a closer look

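The result that stands out is the interaction itself: the response to C. albicans differed between the genotypes in 1563 genes, by limma's test of the difference between the responses at an adjusted p under 0.05. Each gene described with a call passed that test too, and the values in brackets are interactions in log2(TPM + 1), negative where the knockout had the lower response. Among those whose genotypes differed with C. albicans only, a lower response was found for Hspa1a (-2.45), Cxcl3 (-1.95), Ptges (-1.72), Slc7a11 (-1.68), Clec4e (-1.56), Nos2 (-1.52), Gpr84 (-1.46), Ptgs2 (-1.33), Bcl2a1d (-1.21), Malt1 (-1.10), Il1b (-1.06), Txnrd1 (-0.98), Tnip3 (-0.97), Tnf (-0.89), Socs3 (-0.83), Nfkbiz (-0.82), Nfkbia (-0.75), Il1rn (-0.73), Src (-0.70), Birc3 (-0.67), Tnfaip2 (-0.61), Itga5 (-0.53), Hsp90aa1 (-0.47) and Rcan1 (-0.36). In the same class, a higher response was found for Hexa (0.27), H2-Aa (0.51), H2-Ab1 (0.63), Engase (1.33), Gdf3 (1.37) and Ier5l (1.41). Among those whose genotypes differed with PBS only, a lower response was found for S100a4 (-1.01), Npy (-0.88), S100a6 (-0.83), Rpl39 (-0.41) and Uqcrb (-0.32). In the same class, a higher response was found for Il4ra (0.50), Mrc1 (0.66) and Cadm1 (1.50). Where both differences passed with opposite signs, a lower response was found for Cav1 (-2.18), Cxcl1 (-1.91), S100a8 (-1.66), Lsp1 (-1.47), Cxcl2 (-1.44), Il10 (-0.98), Ets2 (-0.95), Fos (-0.92), Plk2 (-0.78) and Dusp1 (-0.76). In the same class, a higher response was found for Irf8 (0.49), Ccl8 (0.50), Ccl6 (0.54), Fcgr4 (0.59), Fcgr3 (0.65), H2-Eb1 (0.81), Saa3 (0.84), Arrdc3 (1.02) and Erdr1 (1.54). Where both passed with the same sign and the difference with C. albicans was the larger, a lower response was found for Acod1 (-1.11), Dusp4 (-0.97), Casp4 (-0.75), Tnip1 (-0.64), Ccl3 (-0.63), Nlrp3 (-0.45), Tlr2 (-0.43), Orai2 (-0.37) and Syk (-0.30). In the same class, a higher response was found for Ctsd (0.19), Acp5 (0.40) and Dynlt1b (0.54). Where the one with PBS was the larger, a higher response was found for Lyz2 (0.33), Itgam (0.45) and Mid1 (1.12). With neither difference passed, a higher response was found for Pnpla7 (0.35). No group had more than 3 libraries, so no library was tested as an outlier within its group.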

How the results depend on the processing

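No gene among the 1563 changed the sign of its interaction in an alternative that tested it (1461 of them were tested at 5 TPM, and all in the other 23). The count was 1609 with median-ratio factors, 1572 with upper-quartile factors, 1527 and 1618 with pseudocounts of 0.1 and 5, 1240 without a filter, 1572 at 5 TPM, 1234 with limma's trend off, 1578 with robust estimation and 1701 with the gene length trend removed. Leaving out 1 library gave 1036 to 2531 calls (484 to 1059 lower, 547 to 1472 higher). The higher end of each range here comes from leaving out wild-type C. albicans replicate 1. With 2 libraries left in a group, limma takes their spread from all groups.

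Whether replicate numbers pair the libraries was not settled. Correlations of deviations between same-numbered libraries were -0.087 to 0.087, with 5 of 12 libraries correlating best with their own number. Between the 2 PBS groups they were 0.048, 0.038 and 0.087, against -0.052 to 0.006 for unlike numbers. Between wild type with C. albicans and knockout with PBS they were -0.039, -0.087 and -0.067. With 3 libraries per group such values cannot decide it. With a replicate block the count was 1418, and 1537 with the block and the length trend removed. Median-ratio factors with the length trend removed, chosen after seeing the data, gave 1694.

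Leaving out 1 library, the class with C. albicans only held 469 (without wild-type C. albicans replicate 2) to 1030 genes, that with PBS only 247 (without knockout PBS replicate 1) to 593, and that of opposite signs 135 to 408. Same sign, larger with C. albicans ranged from 97 to 360, larger with PBS from 17 to 77, and neither from 11 to 63. With the length trend removed, alone, with the block, or with median-ratio factors, the same-sign class larger with C. albicans held 76, 68 and 72, that larger with PBS 23, 19 and 22, and neither 83, 79 and 89. Neither held 19 with upper-quartile factors, and larger with PBS 23 with the trend off.

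For responses, leaving out 1 library gave 467 to 982 smaller rises, 507 to 1379 smaller falls, 14 to 43 larger rises, 7 to 30 larger falls, 10 to 58 opposite responses and 12 to 39 passed in neither genotype. Larger rises numbered 37 with median-ratio factors and the length trend removed. Opposite responses numbered 12 without a filter and 16 with the trend off. Responses passed in neither numbered 41 with median-ratio factors, 14 with the trend off, 43 with the length trend removed and 42 with both corrections. The Piezo1 interaction went from -0.068 to 0.017 with 1 library left out, positive only without wild-type C. albicans replicate 1. The cause of these changes was not tested.

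With a pseudocount of 5 the interactions of Cxcl1 (-1.22), Cxcl3 (-1.20), Ier5l (0.78), Nos2 (-0.75), S100a8 (-0.89) and Slc7a11 (-1.11) were smaller, and with 0.1 that of Cxcl1 was -3.28. With median-ratio and with upper-quartile factors, Tnf, Malt1, Il1rn, Bcl2a1d and Itga5 moved from a difference with C. albicans only to opposite signs, and Casp4, Ccl3, Dusp4, Tnip1, Syk and Orai2 moved to C. albicans only. Ccl6 and Mid1 moved to PBS only with the length trend removed. Depth limits genes at a few reads, such as Cxcl1 with PBS.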
